A study of Homo sapiens with 9 samples.

Results

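Genes of pH regulation were examined in hypoxic SW480 cells, a human line established from a colorectal tumour, after 48 h at 1% oxygen. They are 7 of the 41041 genes in the expression table, taken by symbol for their role in hydrating carbon dioxide or in moving protons, bicarbonate and lactate. They are the carbonic anhydrase genes CA9, CA12 and CA2, the lactate carrier gene SLC16A1 with its chaperone gene BSG, and the bicarbonate transporter genes SLC4A2 and SLC4A7. The 9 poly(A) RNA libraries form 3 groups of 3 biological replicates, all from hypoxic cells: sulforaphane with 5-fluorouracil (SFN+5-FU), sulforaphane alone at 25 µM (SFN), and untreated cells (control). Sulforaphane is an isothiocyanate from cruciferous vegetables, and 5-fluorouracil is a pyrimidine analogue used against colorectal cancer. The sources used here give neither the 5-FU dose nor the SFN dose of the combined group. All groups share hypoxia, and normoxic cells or cells given only 5-FU are not among these samples.

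Hypoxic tumour cells rely on glycolysis and must export the lactate and protons it yields. Monocarboxylate carriers (MCTs) move lactate across the plasma membrane together with a proton, and basigin, the product of BSG, is the chaperone that brings MCT1 and MCT4 there. Carbonic anhydrases interconvert carbon dioxide and bicarbonate with a proton, at the outer cell surface in the case of CA9 and CA12 and in the cytosol in the case of CA2, and transporters of the SLC4 family move bicarbonate across the membrane. CA9 is a classical target of the hypoxia-inducible factor HIF-1.

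Levels are in FPKM, fragments scaled for transcript length and for the size of the library, a unit that lets genes be compared with each other. FPKM is a relative measure of RNA in bulk cells, in which fewer cells of a type and less RNA per cell cannot be told apart. Library sums of FPKM ranged from 259184 to 272235. Markers of colorectal epithelium were present, with 7 of 8 at a mean of at least 1 FPKM and KRT20 below it, and their sum was 1707 to 1722 FPKM with SFN+5-FU, 1768 to 2383 FPKM with SFN and 2552 to 2596 FPKM in control. Most of this sum was KRT8, KRT18 and KRT19. EPCAM overlapped between the groups, at 114.28 to 125.82, 121.76 to 143.66 and 125.33 to 132.87 FPKM in SFN+5-FU, SFN and control libraries. Each other marker had its lowest mean with SFN+5-FU and its highest in control. Of 5 blood and immune markers only CD68 reached a mean of 1 FPKM, PTPRC was at 0 in all 9 libraries, and the sum was 5.72 to 9.76 FPKM with SFN+5-FU, 2.16 to 5.72 FPKM with SFN and 0.77 to 0.84 FPKM in control, nearly all of it CD68, which encodes a lysosomal membrane protein. Of 6 fibroblast markers only COL1A1 reached a mean of 1 FPKM, with sums of 0.74 to 0.78, 0.59 to 0.79 and 1.68 to 2.06 FPKM in SFN+5-FU, SFN and control libraries. None of 3 endothelial markers did, with CDH5 at 0 and sums of 0.24 to 0.31, 0.3 to 0.53 and 0.8 to 0.87 FPKM in SFN+5-FU, SFN and control libraries. The part of these shifts in the results below was not tested.

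The library labelled SFN replicate 2 stood apart from its group. Pearson correlations of log2(FPKM + 1) were taken over the 12662 genes with a mean of at least 1 FPKM. Its r with every SFN+5-FU library was 0.993, against 0.963 and 0.968 for replicates 1 and 3 of its own group, which had r = 0.990 with each other. It was kept in its labelled group. Results that rest on it are given with and without it for CA9, SLC16A1, BSG, SLC4A2 and SLC4A7, and in part for other genes. It was singled out for its likeness to the SFN+5-FU libraries. Leaving it out therefore favours calls between SFN+5-FU and SFN by selection, and such calls are not independent support for a difference. Differences were tested with limma over all 12662 genes and are log2 fold changes of FPKM + 1, called at a Benjamini-Hochberg adjusted p of 0.05. Of the 7 genes 5 passed the expression filter of a mean of 1 FPKM, and CA12 and CA2 did not.

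**Figure D1:**
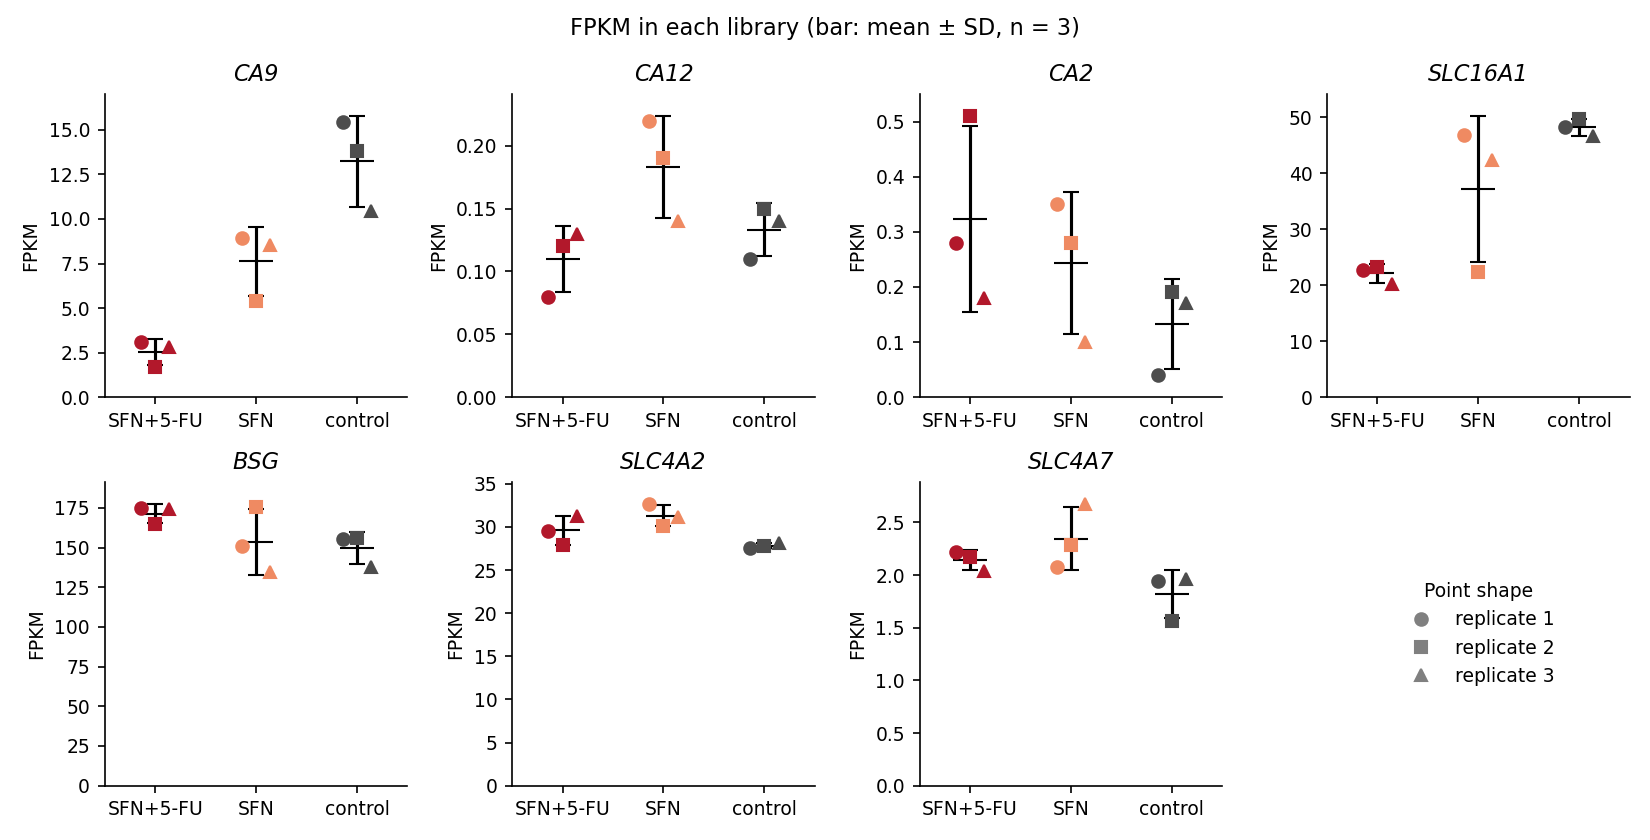
FPKM of the 7 genes in each of the 9 libraries, by group, with a linear axis from 0 and the mean and SD of 3 libraries as bars. CA9 lay lowest with SFN+5-FU and highest in control without overlap, SLC16A1 of SFN replicate 2 (22.28 FPKM) lay among the SFN+5-FU libraries, and CA12 and CA2 stayed below 0.55 FPKM throughout.

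CA9 was the gene with the largest fold change of the 5 in each comparison. CA9 (ENSG00000107159, chromosome 9) encodes the membrane-bound carbonic anhydrase IX, whose active site faces the outside of the cell. Its level was 3.09, 1.72 and 2.80 FPKM in the SFN+5-FU libraries, 8.94, 5.42 and 8.52 FPKM in the SFN libraries, and 15.44, 13.81 and 10.44 FPKM in the control libraries. The 3 groups did not overlap, and SFN replicate 2 was the lowest of its group without reaching the SFN+5-FU libraries. The means were 2.54 ± 0.722, 7.63 ± 1.92 and 13.2 ± 2.55 FPKM in SFN+5-FU, SFN and control (SD, n = 3 each).

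With SFN+5-FU, CA9 fell by 2.01 on the log2 scale relative to control (SE 0.213, limma adjusted p = 6.53e-05), and it stayed called in all 21 alternative analyses (adjusted p from 4.26e-07 to 0.000550). With SFN alone it fell by 0.73 (SE 0.213, adjusted p = 0.0183). Leaving out control replicate 1 or control replicate 2, or testing with no expression filter, lost that call (adjusted p up to 0.0710), and without SFN replicate 2 the log2 fold change was -0.53 (adjusted p = 0.0370). Relative to SFN, the log2 fold change with SFN+5-FU was -1.28 (95% confidence interval -1.76 to -0.80, adjusted p = 0.134). Without SFN replicate 2, CA9 was called lower with SFN+5-FU than with SFN (-1.48, adjusted p = 0.000293), in a comparison that this omission favours.

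The promoter of CA9 is shown because it carries the core letters of a hypoxia response element, the sequence that HIF factors bind. The stretch runs from 250 bases before to 50 bases after the RefSeq start (GRCh38.p14, chr9:35673678-35673977, plus strand), and the capitals mark its single match to ACGTG, which lies on the opposite strand and so reads CACGT here.
CA9: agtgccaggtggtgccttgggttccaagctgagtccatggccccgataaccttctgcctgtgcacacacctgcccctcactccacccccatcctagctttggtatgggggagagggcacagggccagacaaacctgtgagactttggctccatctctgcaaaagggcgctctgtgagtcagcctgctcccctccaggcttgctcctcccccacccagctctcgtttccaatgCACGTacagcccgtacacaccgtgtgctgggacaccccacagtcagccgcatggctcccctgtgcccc
The match starts at base -18 relative to the transcript start. Of 35116 promoter windows of this length in the RefSeq table, 21.4% hold ACGTG on either strand, and 36.5% hold GCGTG, the other form of the core, which the CA9 window lacks. At least 1 of these forms is in 48.45% of the windows. CA12, with 1 window, had no ACGTG and 2 matches to GCGTG. No window was matched for CA2 or SLC16A1.

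On the opposite strand, CA9 overlaps ARHGEF39 in the GENCODE release 29 annotation. ARHGEF39 was 4.19 ± 0.246 FPKM with SFN+5-FU, 4.83 ± 0.674 FPKM with SFN and 5.66 ± 0.314 FPKM in control (SD, n = 3 each), above the CA9 level with SFN+5-FU. The libraries keep strand, but no source used here says whether the expression estimates did, so reads of overlapping genes may not be told apart.

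Apart from CA11, the remaining carbonic anhydrases in the table had means below 1 FPKM. CA12 (ENSG00000074410, chromosome 15), which encodes the other surface enzyme, was 0.08 to 0.13 FPKM with SFN+5-FU, 0.14 to 0.22 FPKM with SFN and 0.11 to 0.15 FPKM in control. CA2 (ENSG00000104267, chromosome 8), the cytosolic enzyme of many epithelia, was 0.18 to 0.51 FPKM with SFN+5-FU, 0.1 to 0.35 FPKM with SFN and 0.04 to 0.19 FPKM in control. Apart from CA12 between SFN+5-FU and SFN, the groups overlapped in both genes. In a fit with no expression filter neither was called in any comparison (limma adjusted p from 0.196 to 0.727).

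Of 12 further carbonic anhydrase genes, 10 were in the table and only CA11 passed the filter. CA11 encodes a secreted carbonic anhydrase-related protein that lacks the catalytic zinc site. It was 5.49 ± 0.151 FPKM with SFN+5-FU, 7.09 ± 0.622 FPKM with SFN and 10.7 ± 1.39 FPKM in control (SD, n = 3 each), and against control it fell by 0.85 with SFN+5-FU (limma adjusted p = 9.94e-05) and by 0.53 with SFN (adjusted p = 0.00196). The summed level of the 13 carbonic anhydrase genes in the table was 10.1 ± 0.561, 16.4 ± 2.07 and 26.0 ± 4.18 FPKM in SFN+5-FU, SFN and control. CA9 made up 24.9% ± 5.97 of this sum with SFN+5-FU, 45.9% ± 6.53 with SFN and 50.8% ± 1.96 in control. CA11 made up 54.4% ± 2.93, 43.3% ± 1.81 and 41.5% ± 1.445 of it in SFN+5-FU, SFN and control. The rest came from genes below the filter. The ratio of CA9 to CA11 in a library was 0.549, 0.312 and 0.525 with SFN+5-FU, 1.17, 0.846 and 1.18 with SFN, and 1.32, 1.22 and 1.14 in control. It was lower in each SFN+5-FU library than in any other (two-sided exact permutation p = 0.1 against control, the smallest that 3 against 3 libraries can give).

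SLC16A1 (ENSG00000155380, chromosome 1) encodes MCT1, a carrier that moves lactate with a proton in either direction. It was 22.77, 23.28 and 20.21 FPKM in the SFN+5-FU libraries, 46.84, 22.28 and 42.25 FPKM in the SFN libraries, and 48.25, 49.69 and 46.63 FPKM in the control libraries. SFN replicate 1 lay inside the control range, SFN replicate 3 below it, and SFN replicate 2 inside the SFN+5-FU range. The means were 22.1 ± 1.65, 37.1 ± 13.1 and 48.2 ± 1.53 FPKM in SFN+5-FU, SFN and control (SD, n = 3 each).

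With SFN+5-FU, SLC16A1 fell by 1.09 on the log2 scale relative to control (SE 0.224, limma adjusted p = 0.00220), called in all 21 alternatives (adjusted p from 3.63e-07 to 0.0107). With SFN its log2 fold change was -0.43 (SE 0.224, adjusted p = 0.133). Without SFN replicate 2 it was -0.11 (95% confidence interval -0.27 to 0.05, adjusted p = 0.208), and the call was made only with library weights and without SFN replicate 1 (adjusted p = 0.0463 and 0.0362). Relative to SFN, the log2 fold change with SFN+5-FU was -0.66 (-1.16 to -0.15, adjusted p = 0.134), and without SFN replicate 2 SLC16A1 was called lower with SFN+5-FU than with SFN (-0.98, adjusted p = 2.65e-05). Its antisense gene SLC16A1-AS1 was 0.863 ± 0.0153 FPKM with SFN+5-FU, 0.843 ± 0.0569 FPKM with SFN and 0.62 ± 0.0436 FPKM in control.

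The gene of the other main lactate exporter, SLC16A3, encodes MCT4 and was described beside SLC16A1. It was 33.0 ± 1.92 FPKM with SFN+5-FU, 43.8 ± 8.33 FPKM with SFN and 60.9 ± 1.84 FPKM in control (SD, n = 3 each). Relative to control it fell by 0.87 with SFN+5-FU (SE 0.121, limma adjusted p = 0.000263) and by 0.48 with SFN (adjusted p = 0.00905), a call lost with the GC and length correction. SFN replicate 2 was at 35.08 FPKM, against 51.68 and 44.56 FPKM in SFN replicates 1 and 3. Without it the log2 fold change with SFN was -0.34 (adjusted p = 0.00384). Relative to SFN, the value with SFN+5-FU was -0.38 (adjusted p = 0.134), and -0.53 without SFN replicate 2 (adjusted p = 0.000438). The ratio of SLC16A1 to SLC16A3 was 0.673 ± 0.0861 with SFN+5-FU, 0.830 ± 0.170 with SFN and 0.791 ± 0.00863 in control, with SFN replicate 2 at 0.635. SLC16A3 overlaps CSNK1D on the opposite strand and AC132872.3, at 0.53 to 1.74 FPKM over the 9 libraries, on its own. Of the 5 RefSeq starts of SLC16A3 only the second had ACGTG in its window. It is shown for comparison with CA9, with both matches in capitals, at bases -68 and -55 on the gene's strand (GRCh38.p14, chr17:82228792-82229091, plus strand).
SLC16A3: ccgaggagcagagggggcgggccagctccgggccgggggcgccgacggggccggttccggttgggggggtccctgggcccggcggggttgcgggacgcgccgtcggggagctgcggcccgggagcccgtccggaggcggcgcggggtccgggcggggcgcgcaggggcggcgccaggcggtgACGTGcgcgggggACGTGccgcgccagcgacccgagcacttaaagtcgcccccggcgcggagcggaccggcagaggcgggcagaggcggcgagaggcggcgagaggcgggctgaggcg

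BSG (ENSG00000172270, chromosome 19), the most abundant of the 7 genes, was not called lower with SFN+5-FU, unlike both of its client carriers. It was 174.94, 164.58 and 174.42 FPKM in the SFN+5-FU libraries, 150.98, 175.35 and 134.45 FPKM in the SFN libraries, and 155.33, 155.72 and 137.75 FPKM in the control libraries. The SFN+5-FU libraries lay above all control libraries, and SFN replicate 2 was the highest of all 9. The means were 171 ± 5.84, 154 ± 20.6 and 150 ± 10.3 FPKM in SFN+5-FU, SFN and control (SD, n = 3 each).

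Relative to control, BSG had a log2 fold change of 0.20 with SFN+5-FU (95% confidence interval -0.02 to 0.41, limma adjusted p = 0.0977). It was called higher in 4 of 21 alternatives, among them without SFN replicate 2 (0.20, adjusted p = 0.0201). With SFN the log2 fold change was 0.03 (-0.18 to 0.25, adjusted p = 0.801), and it turned negative with quantile normalization, with mitochondrial transcripts left out, without control replicate 3, without SFN replicate 2 (-0.07, adjusted p = 0.445) and with library weights, where BSG was called lower (-0.15, adjusted p = 0.0312). With SFN+5-FU relative to SFN it was 0.16 (-0.05 to 0.38, adjusted p = 0.248), and without SFN replicate 2 BSG was called higher with SFN+5-FU than with SFN (0.26, adjusted p = 0.0140).

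The amount of BSG mRNA per carrier mRNA was set out as the ratio of BSG to the sum of SLC16A1 and SLC16A3 in each library. It was 3.13, 3.03 and 3.17 with SFN+5-FU, 1.53, 3.06 and 1.55 with SFN, and 1.41, 1.39 and 1.31 in control. SFN replicates 1 and 3 stood just above the control libraries and SFN replicate 2 within the SFN+5-FU range. The means were 3.11 ± 0.0703 with SFN+5-FU and 1.37 ± 0.0562 in control (SD, n = 3 each, two-sided exact permutation p = 0.1, the smallest possible). Of its 2 RefSeq starts the second held the letters CACGTG, an E-box bound by MYC and related factors, which contains ACGTG on both strands. This window is shown beside that of CA9 as one whose gene was not called lower (GRCh38.p14, chr19:572346-572645, plus strand), with the E-box at base -193 in capitals.
BSG: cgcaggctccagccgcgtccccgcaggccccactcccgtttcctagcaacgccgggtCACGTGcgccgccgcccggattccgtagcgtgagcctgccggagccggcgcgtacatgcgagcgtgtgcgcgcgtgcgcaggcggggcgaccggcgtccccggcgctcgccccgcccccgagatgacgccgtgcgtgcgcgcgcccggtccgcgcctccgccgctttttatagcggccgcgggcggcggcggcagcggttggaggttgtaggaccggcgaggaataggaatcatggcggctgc
Of all promoter windows 7.26% hold CACGTG. The same BSG window held 4 matches to GCGTG and 1 to TGACNNNGC, the core of the antioxidant response element bound by NRF2, which starts at base -200 and runs into the E-box. That motif was in 13.3% of all windows and in no other window matched for the 7 genes. Of 4 SLC4A2 windows, the third and the fourth, which overlap, held 3 E-boxes each and so 6 matches to ACGTG each. From the first to the fourth they held 2, 2, 2 and 1 matches to GCGTG. Of 2 SLC4A7 windows the first held 3 matches to GCGTG and none to ACGTG. BSG overlaps AC009005.1, an antisense gene, which was 4.24 ± 0.412 FPKM with SFN+5-FU, 3.78 ± 0.359 FPKM with SFN and 2.94 ± 0.405 FPKM in control.

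**Figure D2:**
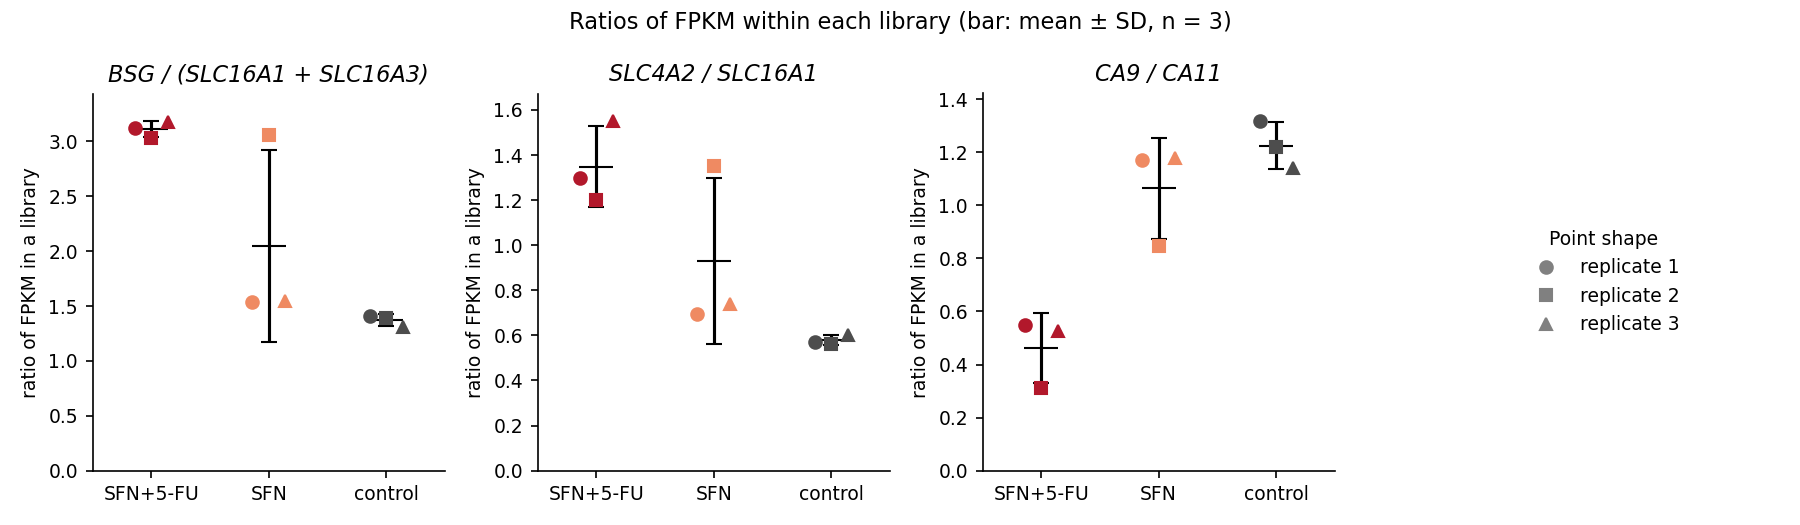
Ratios of FPKM within each library for BSG over the sum of SLC16A1 and SLC16A3, SLC4A2 over SLC16A1, and CA9 over CA11, on linear axes from 0, with the mean and SD of 3 libraries as bars. In the first panel the SFN+5-FU libraries lie between 3.03 and 3.17 and the control libraries between 1.31 and 1.41, with SFN replicate 2 at 3.06.

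The bicarbonate transporter genes had smaller fold changes than CA9 and SLC16A1 with SFN+5-FU. SLC4A2 (ENSG00000164889, chromosome 7) encodes the anion exchanger AE2, which swaps chloride for bicarbonate and so lets bicarbonate leave the cell. It was 29.58, 27.95 and 31.30 FPKM in the SFN+5-FU libraries, 32.60, 30.15 and 31.19 FPKM in the SFN libraries, and 27.58, 27.82 and 28.13 FPKM in the control libraries. All 3 SFN libraries lay above the control libraries, while SFN+5-FU overlapped control.

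With SFN+5-FU, SLC4A2 had a log2 fold change of 0.08 relative to control (95% confidence interval -0.05 to 0.22, limma adjusted p = 0.247). Its sign turned with quantile normalization and with mitochondrial transcripts left out, and with the GC and length correction it rose by 0.33 (adjusted p = 0.00110). With SFN the log2 fold change was 0.16 (0.03 to 0.30, adjusted p = 0.0505), just outside the threshold, and it was called in 5 of 21 alternatives, including the one without SFN replicate 2 (0.19, adjusted p = 0.0169). The scaling moved this value to 0.38 with the GC and length correction (adjusted p = 0.000808), 0.095 with mitochondrial transcripts left out (adjusted p = 0.239) and 0.042 with quantile normalization (adjusted p = 0.629). With SFN+5-FU relative to SFN the value was -0.08 (-0.22 to 0.06, adjusted p = 0.370). SLC4A2 overlaps CDK5 on the opposite strand, which was 8.57 ± 0.538 FPKM with SFN+5-FU, 9.33 ± 2.11 FPKM with SFN and 12.9 ± 0.878 FPKM in control.

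SLC4A7 (ENSG00000033867, chromosome 3) encodes NBCn1, a sodium-bicarbonate cotransporter that brings bicarbonate into the cell. It was 2.22, 2.17 and 2.04 FPKM in the SFN+5-FU libraries, 2.08, 2.29 and 2.67 FPKM in the SFN libraries, and 1.94, 1.56 and 1.96 FPKM in the control libraries. Both treated groups lay above control, by a margin smaller than the range within the SFN group. It rose with SFN by 0.25 (SE 0.0920, limma adjusted p = 0.0497), a call that 14 of 20 alternatives lost (adjusted p from 0.0503 to 0.176 in those 14). They include those that left out control replicate 1, 2 or 3, SFN replicate 2 (0.0508), SFN replicate 3 or any 1 of the SFN+5-FU libraries, and the one with the replicate number as a block (0.0731). With SFN+5-FU the log2 fold change was 0.16 (95% confidence interval -0.05 to 0.37, adjusted p = 0.153), and relative to SFN it was -0.09 (-0.29 to 0.12, adjusted p = 0.509).

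Read together by comparison, with SFN+5-FU against control 2 of the 5 tested genes fell, CA9 and SLC16A1, and none rose, where 66.2% of all tested genes were called (38.3% higher and 28.0% lower). With SFN against control CA9 fell and SLC4A7 rose, where 50.0% of all tested genes were called (27.5% higher and 22.5% lower). In the comparison of SFN+5-FU with SFN none was called by limma, and 2 had an unadjusted p under 0.05, where 0.00790% of all tested genes were called (1 gene, and 3982 at an unadjusted p under 0.05). Without SFN replicate 2, CA9 and SLC16A1 were called lower and BSG higher both with SFN+5-FU against control, where 74.7% of all tested genes were called (43.4% higher and 31.3% lower), and with SFN+5-FU against SFN, where 51.2% were called (29.8% higher and 21.4% lower). With SFN against control CA9 was then called lower and SLC4A2 higher, where 56.9% were called (30.0% higher and 26.9% lower). The 2 comparisons with control share the control libraries, and the share of the 5 genes called in either direction was no higher than these backgrounds, except between SFN+5-FU and SFN without SFN replicate 2, where 3 of 5 were called.

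**Figure D3:**
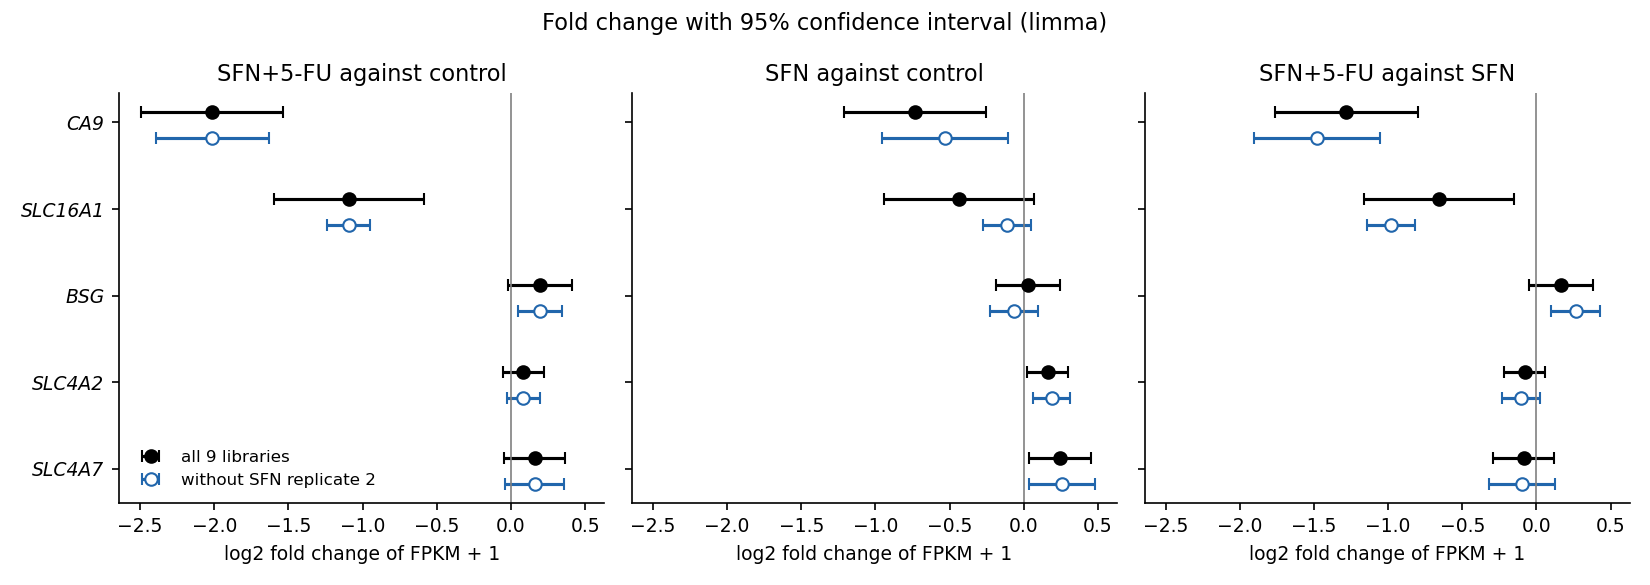
Log2 fold change of FPKM + 1 with its 95% confidence interval from limma for the 5 tested genes in the 3 comparisons, with all 9 libraries (filled points) and without SFN replicate 2 (open points). CA9 and SLC16A1 lie left of 0 in the comparison of SFN+5-FU with control at -2.01 and -1.09, and SLC16A1 moves to -0.11 in the comparison of SFN with control when SFN replicate 2 is left out.

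The order of the levels differed between the groups. With SFN+5-FU it was BSG, SLC4A2, SLC16A1, CA9, SLC4A7, CA2 and CA12 from high to low, and CA9 and SLC4A7 overlapped. With SFN it was BSG, SLC16A1, SLC4A2, CA9, SLC4A7, CA2 and CA12, with overlap between SLC16A1 and SLC4A2 and between CA2 and CA12. In control the first 5 stood in that same order with no overlap between neighbours, followed by CA12 and CA2, which overlapped. The ratio of SLC4A2 to SLC16A1 was 1.30, 1.20 and 1.55 in the SFN+5-FU libraries, 0.696, 1.35 and 0.738 in the SFN libraries, and 0.572, 0.560 and 0.603 in the control libraries. Only the SFN+5-FU libraries and SFN replicate 2 had more SLC4A2 than SLC16A1 mRNA per length.

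Genes most like each of them over the 9 libraries were found by Pearson correlation of log2(FPKM + 1) among 6808 genes with a mean of at least 5 FPKM. The groups differ and the libraries of a group share their treatment, so r is a description of shape only. AMPD2, RHBDF2 and ZAP70 were closest to CA9 (r = 0.981, 0.974 and 0.973), and EPB41L4A and CHST11 to SLC16A1 (r = 0.995 and 0.994). SIPA1, HSPB1 and ELK1 were closest to BSG (r = 0.992, 0.975 and 0.971). MST1R, ABHD11 and SNRPB were closest to SLC4A2 (r = 0.972, 0.936 and 0.934), and FAR1, SPDL1 and CBX3 to SLC4A7 (r = 0.981, 0.970 and 0.969).

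Other genes of pH regulation and acid sensing were counted in lists. The shares of all tested genes given above apply to them in the main fit and without SFN replicate 2. With the GC and length correction, 4433 of 12504 genes rose and 3850 fell with SFN+5-FU relative to control. With SFN 3339 rose and 2972 fell. Of 8 tested monocarboxylate carriers and partners besides SLC16A1 and BSG (17 listed), 2 rose and 4 fell with SFN+5-FU relative to control, with a median log2 fold change of -0.19 beside 0.10 over all tested genes. With SFN 2 rose and 5 fell, with a median of -0.47 beside 0.05. Without SFN replicate 2, 2 rose and 6 fell with SFN, with a median of -0.48 beside 0.02. SLC16A9, a member of the same family, rose to 2.68 ± 0.200 FPKM with SFN+5-FU, against 0.587 ± 0.163 FPKM in control (adjusted p = 8.83e-05). Its control level was below the filter, which the gene passed through the treated libraries.

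Of 10 tested sodium-proton exchangers and regulators (16 listed), 3 rose and 5 fell with SFN+5-FU relative to control (median -0.08), and 1 rose and 3 fell with SFN (median -0.07), or 2 and 2 with the GC and length correction. SLC9A3, the apical exchanger NHE3, was 3.46 ± 0.418 FPKM with SFN+5-FU, 5.97 ± 1.97 FPKM with SFN and 6.92 ± 0.524 FPKM in control, and it fell by 0.83 with SFN+5-FU (adjusted p = 0.00425). SFN replicate 2 was at 3.71 FPKM, against 7.33 and 6.87 FPKM in SFN replicates 1 and 3. The log2 fold change of SLC9A3 with SFN was -0.23 (adjusted p = 0.350), and 0.03 without SFN replicate 2. With SFN+5-FU, TESC, an exchanger regulator, fell by 0.96 (adjusted p = 0.000450), and SLC9A2, which encodes NHE2, was called 0.55 higher (adjusted p = 0.00186). SLC9A2 was 1.49 ± 0.160 FPKM with SFN+5-FU and 0.697 ± 0.0473 FPKM in control, and it too passed the filter through the treated libraries. NHERF1, the scaffold of NHE3 and the most abundant of this list, had a log2 fold change of 0.10 (adjusted p = 0.389), which turned negative with quantile normalization and with mitochondrial transcripts left out.

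Of 7 tested bicarbonate and anion exchangers besides SLC4A2 and SLC4A7 (19 listed, with their regulators), 5 fell with SFN+5-FU and 4 fell with SFN relative to control, and none rose in either (median -0.42 and -0.23). Without SFN replicate 2, 5 fell with SFN and none rose (median -0.30). SLC26A6, an exchanger of chloride for bicarbonate or oxalate, fell to 4.97 ± 0.344 FPKM with SFN+5-FU, against 10.3 ± 0.417 FPKM in control (adjusted p = 3.75e-05). SLC4A3, the anion exchanger AE3, fell to 3.26 ± 0.145 FPKM with SFN+5-FU, against 6.86 ± 0.446 FPKM in control (adjusted p = 5.03e-05). AHCYL2 and AHCYL1, which encode regulators of sodium-bicarbonate cotransport, fell by 0.65 and 0.30 (adjusted p = 9.88e-05 and 0.00165). With the GC and length correction 1 gene of this list rose with SFN+5-FU and 5 fell.

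Of 20 tested subunits of the vacuolar proton pump, which acidifies lysosomes and can also export protons at the cell surface (25 listed), 9 rose and 4 fell with SFN+5-FU relative to control (median 0.22), and 6 rose and 2 fell with SFN (median 0.02). Without SFN replicate 2, 7 rose and 4 fell with SFN (median -0.04). With the GC and length correction 7 rose and 5 fell with SFN+5-FU, and 4 rose and 4 fell with SFN. ATP6V1D, of the central stalk, rose to 33.3 ± 1.5 FPKM with SFN+5-FU, against 16.8 ± 1.44 FPKM in control (adjusted p = 8.23e-05). ATP6V1F, the most abundant, rose to 135 ± 7.44 FPKM, against 87.8 ± 0.635 FPKM in control (adjusted p = 0.00105). ATP6V0A4, a tissue-restricted subunit, fell by 0.76 (adjusted p = 0.00255), at 0.767 ± 0.0551 FPKM with SFN+5-FU and 2.00 ± 0.270 FPKM in control, so it passed the filter through libraries in which it was higher.

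Of 16 other proton pumps, channels and acid sensors only ASIC1 and PACC1 passed the filter. ASIC1, an acid-sensing ion channel, was 1.5 ± 0.219 FPKM with SFN+5-FU, 3.41 ± 1.47 FPKM with SFN and 6.86 ± 0.840 FPKM in control, and fell by 1.65 and 0.89 with SFN+5-FU and SFN relative to control (adjusted p = 0.000245 and 0.0102). SFN replicate 2, at 1.77 FPKM, lay near the SFN+5-FU libraries, and without it the log2 fold change of ASIC1 with SFN was -0.58 (adjusted p = 0.00226). PACC1, the proton-activated chloride channel, rose by 0.54 and 0.50 (adjusted p = 0.000217 and 0.000599). Among lactate dehydrogenase genes, LDHA fell by 1.21 with SFN+5-FU relative to control (adjusted p = 0.00218), with SFN replicate 2 at 200.49 FPKM, inside the range of that group, and LDHB, the other one tested, had a log2 fold change of -0.18 (adjusted p = 0.0833). LDHB was called lower in 7 of 21 alternatives, among them without SFN replicate 2 (-0.18, adjusted p = 0.0241) and with the GC and length correction (-0.42, adjusted p = 0.00351). No gene of any of these lists was called between SFN+5-FU and SFN. Without SFN replicate 2 the lists had calls there, such as 3 higher and 2 lower among the monocarboxylate carriers and 7 higher and 2 lower among the pump subunits.

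**Figure D4:**
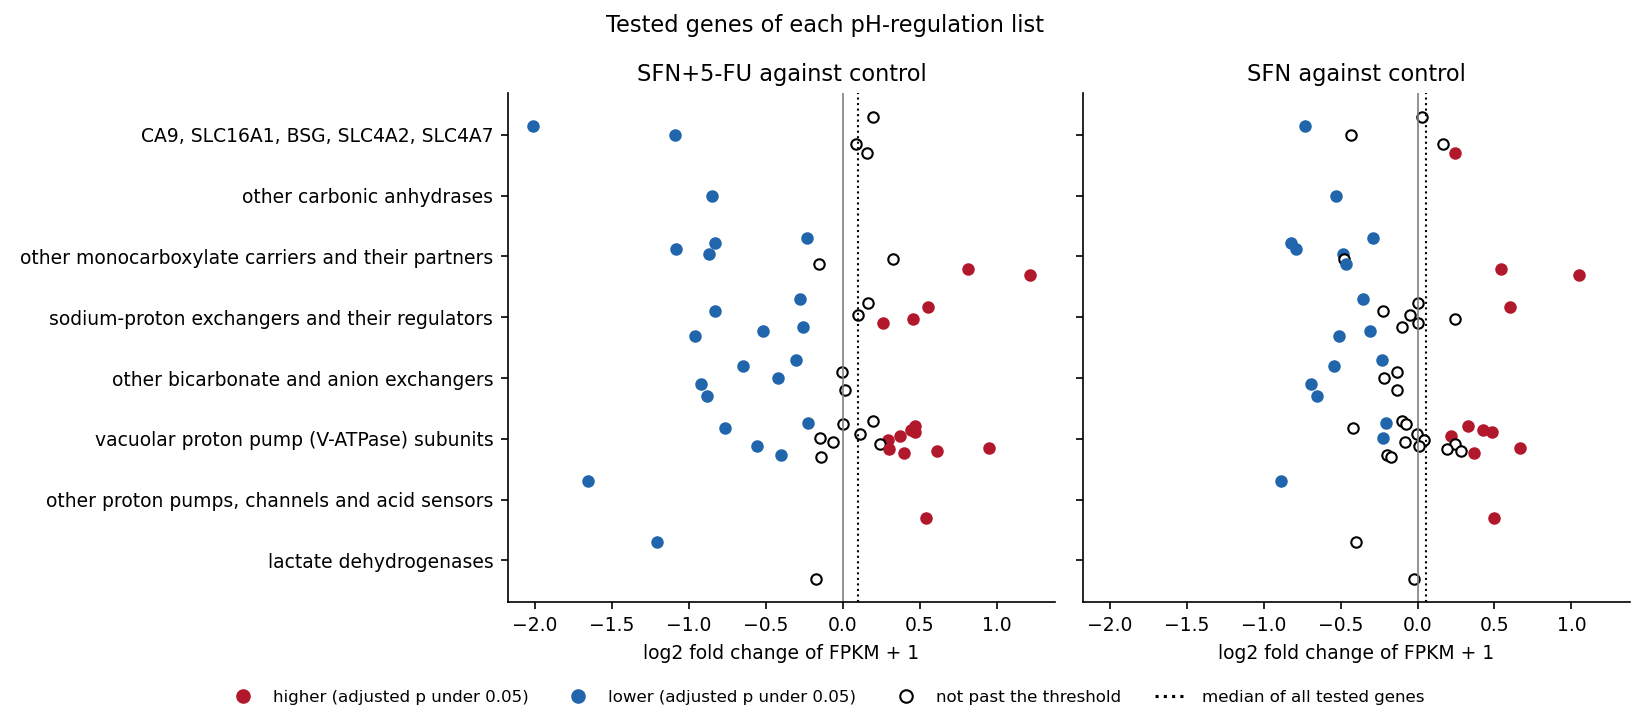
Log2 fold change of FPKM + 1 of every tested gene of the 7 genes and of each further list, for SFN+5-FU against control (left) and SFN against control (right), with genes past an adjusted p of 0.05 in red (higher) or blue (lower), the others open, and the median of all tested genes as a dotted line. In the list of other bicarbonate and anion exchangers, which leaves out SLC4A2 and SLC4A7, no point is red in either panel, while the vacuolar pump has 9 red and 4 blue points on the left.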

How the data were processed

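The authors deposited FPKM per gene; fastp, StringTie and edgeR are named, without versions, per the submitters' processing notes. The sources used here do not give the aligner, genome build, annotation or depth, and FPKM to 2 decimals (smallest value above 0 of 0.01) does not hold the depth. Libraries were poly(A)-selected and dUTP-stranded, per the labels' protocols. The labels name no batch.

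Symbols were matched through the name table (41002 of 41041 identifiers matched). Genes with a mean of at least 1 FPKM over the 9 libraries were kept (12662). The scale was log2(FPKM + 1), on which fold changes of low genes are understated. All 9 libraries entered the same limma model with 3 contrasts, its prior variance following mean expression (residual degrees of freedom 6, prior 3.2). P values are two-sided and adjusted by the Benjamini-Hochberg method over all tested genes within a contrast, and the spread is shared by the 3 groups. P values measure the spread between these libraries. The fit was tested on simulated data.

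The genes and lists were chosen with earlier results of these data known. From each list the text names up to 3 called genes with the largest change with SFN+5-FU and the most abundant gene, and for each tested gene up to 3 most like it. Some genes that the rule selects are not reported here. The labels do not say what a shared replicate number means, and no pairing was used in the main fit. After group means were removed, libraries sharing a number correlated at -0.143 to 0.107, with 1 of 9 pairs above 0.1. Libraries of different numbers and groups correlated at -0.247 to 0.182. With 3 libraries a group, these values cannot decide whether the numbers pair the libraries. GC content and length came from the longest GENCODE release 29 transcript of 12504 genes (98.8%). Promoter sequences came from RefSeq (GRCh38.p14), and motifs were sought on both strands. Tools were R 4.3.3 with limma 3.58.1 and Python 3.11.15 with pandas 2.3.3 and matplotlib 3.10.9.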

Additional observations from a re-analysis of the deposited data

How the results depend on the processing

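Over 21 alternatives (filter, pseudocount, scaling, GC and length correction, variance model, replicate block and libraries included), 312 fold changes of the 5 tested genes were recomputed: 270 kept direction and side of the threshold, 17 lost a call, 18 gained a call and 7 changed sign. The cause of these changes was not tested. The signs that turned were those of BSG with SFN against control (-0.10 with quantile normalization, -0.039 with mitochondrial genes left out, -0.15 with library weights, and -0.068 to 0.12 without a single library) and of SLC4A2 with SFN+5-FU against control (-0.10 with quantile normalization and -0.018 with mitochondrial genes left out).

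With SFN against control, 2 of the 5 genes were called. This became 5 with library weights, 0 with no expression filter, 0 to 3 without a single library (0 without control replicate 1 or 2), and 1 with a pseudocount of 0.1, with median-of-ratios scaling, with mitochondrial genes left out, with only the 6 libraries compared, and with the replicate number as a block. With SFN+5-FU against control it was 2, and 4 after the GC and length correction. It was 3 with library weights, with only the 6 libraries compared and without SFN replicate 2. Between SFN+5-FU and SFN it was 0, 3 with library weights and 0 to 3 without a single library. The counts over all tested genes moved too. With library weights 8829 of 12662 genes were called with SFN and 10063 with SFN+5-FU, in place of 6333 and 8387. The GC and length correction gave 6311 and 8283 calls of 12504 genes. With only the 6 libraries compared there were 5166 and 9592. Leaving out a single library gave 4845 to 7200 and 7287 to 9461.

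Over all genes, a mean FPKM filter of 5 tests fewer genes and gave 3888 calls in place of 6333 with SFN and 4903 in place of 8387 with SFN+5-FU. Between SFN+5-FU and SFN, 1 gene was called, 7432 with library weights, 0 with only the 6 libraries compared, 0 with the replicate block, and 0 to 6478 without a single library, the highest without SFN replicate 2. The block lost the call of SLC4A7 with SFN and changed no other call of the 5 genes. CA12 and CA2 were below the expression filter and were tested only in the fit without it.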
